A study of Danio rerio with 6 samples.

Results

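MicroRNA (miRNA) signal in untreated zebrafish embryos at 24 h after fertilisation was read from 2 one-colour arrays, the control arrays among the 6 arrays of the series. The control embryos were whole embryos kept in system water at 28°C, 200 to a dish, with no treatment and no genotype or strain given in the labels. The remaining groups were exposed to ethanol from 4 h after fertilisation, at 1% or 1.5%, and were not used here. The labels call the 2 control samples biological replicates. A sample held 2 µg of total RNA with an RNA integrity number above 7, labelled with Cy3 for 15 min at 85°C. The 2 control arrays lay on different slides per the file headers, so array, slide and biological replicate cannot be told apart.

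Members were the probes with a zebrafish name in the probe label, 243 probes on 972 of the 5040 spots of an array. Each probe was printed as 4 spots, one adjacent pair in the upper part of the array and one pair in the lower part. Of these probes, 218 carried a registered zebrafish name and 25 a ZF_miR name that neither the labels nor the headers explain. Probes were ranked by the log2 foreground intensity of their kept spots, averaged within an array and then over both arrays. A probe was called present when at least 50% of its kept spots exceeded, on both arrays, the 95th percentile of spots that were empty or blank. That percentile, set for each array and called the limit, was 451.1 intensity units on replicate 1 and 276.5 on replicate 2. Brightness depends on probe sequence and label uptake as well as on the amount of RNA, so the ranks are ranks of brightness and not of abundance.

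MiRNAs are short RNAs, cut from hairpin precursors, that pair with messenger RNAs through a seed near their 5′ end and lower translation or stability. In zebrafish the miR-430 family is made when the embryonic genome is switched on and clears maternal messages, while most tissue-restricted miRNAs appear later, as brain, muscle, skin and blood differentiate. At 24 h the embryo has a segmented trunk, a beating heart, a regionalised brain and an early skin. In RNA from whole embryos, fewer cells of a type and less RNA per cell cannot be told apart.

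Signal over the limit was found for 36 of 243 zebrafish probes, 14.8% of them, and 207 were not present on both arrays. The same rule called 25 of 183 probes named only for worm or insect miRNAs present, 13.7% of them. It also called 105 of 652 probes named for other species (16.1%) and 14 of 76 probes named by a number only (18.4%). The share of zebrafish probes over the limit was therefore close to that of probes for worms and insects, and presence by itself did not set the zebrafish probes apart. A mean log2 level over 12 was reached by 8 zebrafish probes (3.29%) and 2 worm or insect probes (1.09%). It was also reached by 18 probes of other species (2.76%) and 2 probes named by a number only (2.63%). The bright tail of zebrafish probes was thus larger than that of worm or insect probes but close to that of the other classes. No test was made of these shares.

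**Figure D1:**
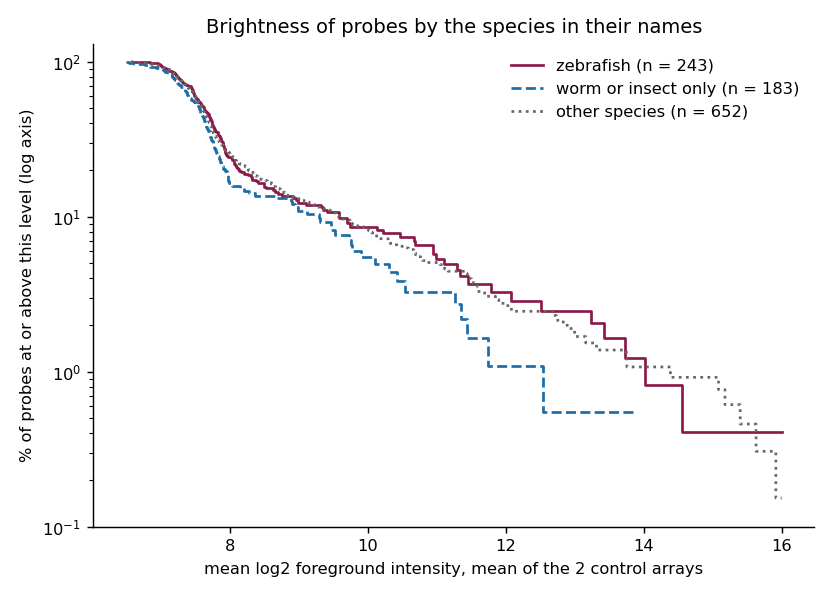
Share of probes (percent, log axis) whose mean log2 foreground intensity over the 2 control arrays was at or above the level on the horizontal axis, drawn as a line for zebrafish probes, for worm or insect probes and for probes of other species. The lines start alike, with medians of 7.63 for zebrafish and 7.56 for worm or insect probes. The worm or insect line lies lowest above a level of 10, at 5.46% of probes against 8.64% of zebrafish probes and 8.28% of other-species probes. Probes named by a number only are not drawn and had 9.21% above that level.

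On replicate 1 alone 49 zebrafish probes were over the limit (20.2%), and on replicate 2 alone 42 were (17.3%). Of these, 13 were over it on replicate 1 only and 6 on replicate 2 only, while 188 were over it on neither. Among the 188, 131 had no single spot over the limit on either array. Replicate 1 was the brighter array for 224 of 243 probes, by a median of 0.47 log2 units, and its limit was 0.71 log2 units higher. Across the 243 probes, which share each array's labelling and background, Pearson's r between the arrays was 0.943, and it was 0.903 over the present probes and 0.611 over the others.

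**Figure D2:**
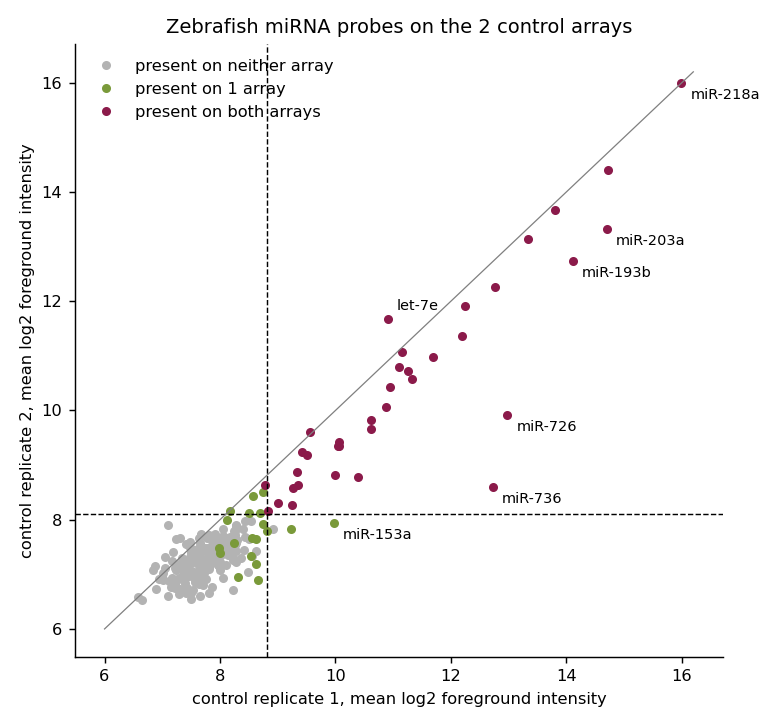
Log2 foreground intensity of each zebrafish probe on control replicate 1 (horizontal axis) and control replicate 2 (vertical axis), with the limit of each array drawn as a line. The 36 present probes lie above both lines, except let-7c, whose mean on replicate 1 falls just under the limit, and miR-736 and miR-726 stand farthest from the diagonal.

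The excess of each probe over the limit was tested against the spread between the arrays with limma, with two-sided p-values and Benjamini-Hochberg adjustment across all 243 probes. By this test 30 probes lay above the limit (12.3%) and 159 lay below it. Before adjustment 31 probes above the limit had a limma p under 0.05. The adjustment pooled both directions, so the many probes below the limit lowered the adjusted p of those above it. The threshold of 0.05 is therefore not an error rate for the 30 alone. All 30 were among the 36 present probes. The test used the same spot values and limit as the present calls, so this overlap is no independent support for them. It used the mean of each array, so disagreement between the spots of a probe, as for ZF_miR_20, let-7e and miR-18b*, did not enter. The 6 present probes that did not pass were miR-736, miR-128, miR-18a, let-7c, miR-181a and miR-192. The p-values rest on these 2 samples only, with 1 residual degree of freedom a probe, and on a variance moderated over the 243 probes. The spread they use is that of the excess over each array's own limit, and not the SD of the level printed below. For miR-132 the SD was 0.10 for the level and 0.40 for the excess.

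The 8 brightest present probes were, in order, miR-218a, miR-23a, miR-203a, miR-132, miR-193b, miR-9, miR-19a and miR-146b. The 36 present probes had a median level of 10.57 and a range from 8.49 to 15.99 on the log2 scale of foreground intensity. Their median SD over the 2 arrays was 0.49. The 207 other probes had a median of 7.52 on the same scale and reached 8.96.

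**Figure D3:**
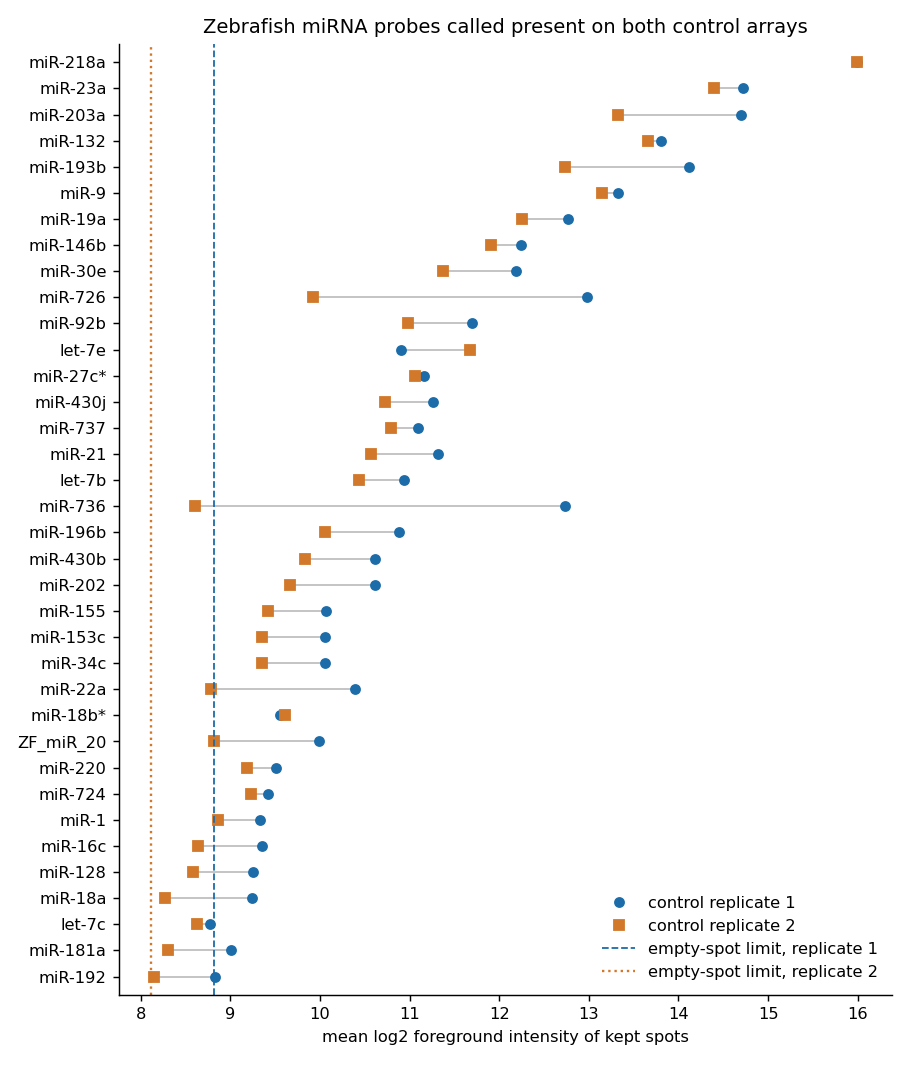
Mean log2 foreground intensity of the kept spots (horizontal axis) of each of the 36 present zebrafish probes on control replicate 1 (circles) and control replicate 2 (squares), ordered by mean level, with the limit of each array as a vertical line. MiR-218a sits at the ceiling of the scanner on both arrays, miR-726 and miR-736 have the longest bars between arrays, and the dimmest probe, miR-192, lies just over both limits.

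Of the 29 probes of the neural list, 6 were present, and the median level of all 29 was 7.72 against 7.63 over all zebrafish probes. MiR-218a, a miRNA of motor neurons in mouse and zebrafish that is encoded within the Slit genes, was the brightest zebrafish probe. It read 65294 and 65290 intensity units on replicates 1 and 2, and all 4 of its spots were saturated on both arrays, so these values are a lower bound. No other zebrafish probe had a saturated spot. Its paralogue miR-218b had 204 and 183 units and no spot over the limit on either array.

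MiR-132, which neuronal activity induces in rodent neurons, had 14260 and 12967 units, a mean log2 level of 13.73 ± 0.10 (SD, n = 2). MiR-9, a regulator of neural progenitors in the zebrafish hindbrain and midbrain, had 10300 and 9073 units, or 13.24 ± 0.13 (SD, n = 2). Both were far over the limit on both arrays, with an excess of 5.27 and 4.77 log2 units and an adjusted p of 0.00809 each by limma. MiR-153c, of a brain family that targets synaptic vesicle release genes, had 1065 and 654 units. MiR-128, a miRNA enriched in brain, had 612 and 383 units, and its excess of 0.46 log2 units did not pass the test (limma adjusted p = 0.0521). MiR-181a, best known from lymphocyte development in mouse and also found in brain, had 514 and 317 units and did not pass either (limma adjusted p = 0.246).

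The neuronal miRNA miR-124 was not called present. It had 257 and 167 units, with 1 of 2 kept spots over the limit on replicate 1 and 0 of 3 on replicate 2. MiR-153a had 1006 units on replicate 1 and 246 on replicate 2, over the limit on the first array only, and it was the brightest neural probe outside the present set. MiR-125b, widely expressed in the nervous system, had 212 and 130 units. The neural list held 3 of the 6 brightest zebrafish probes, miR-218a, miR-132 and miR-9, beside 23 probes that were not present. Its share of present probes was 20.7%, against 14.8% of all zebrafish probes, and this was not tested. The list was chosen with earlier results of these data known, so its bright members are no independent observation.

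In the epidermis list, miR-203a, which limits the renewal of epidermal progenitors in mouse skin, read 26635 units on replicate 1 and 10288 on replicate 2, or 14.01 ± 0.97 (SD, n = 2). It was the only one of the 4 epidermis probes that was present, with miR-203b at 375 and 161 units and miR-205, an epithelial miRNA, at 260 and 164 units. MiR-203a had no kept spot in the lower part of replicate 1, so its level there rests on the upper position alone, as it did for miR-30e, miR-92b, miR-737 and miR-16c. The excess of 5.55 log2 units passed the test (limma adjusted p = 0.00809).

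MiR-23a, which is transcribed with members of the miR-27 and miR-24 families, was the brightest unsaturated probe. It had 26880 and 21621 units, a level of 14.56 ± 0.22 (SD, n = 2), and an excess of 6.09 log2 units (limma adjusted p = 0.00809). Of the 9 probes of the miR-23/27/24 clusters, miR-27c* was the only other present one, at 2287 and 2138 units. MiR-27b had 395 and 146 units, both means under the limit, with 1 of 2 kept spots over it on replicate 1 and 0 of 4 on replicate 2. MiR-24 had 240 and 174 units.

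The miR-17-92 list, named for a cluster that promotes proliferation and survival in mammals, had 4 of 20 probes present and a median of 7.47. MiR-19a was its brightest probe at 6957 and 4889 units, or 12.51 ± 0.36 (SD, n = 2). MiR-92b had 3309 and 2028 units and miR-18b* had 750.5 and 782 units. MiR-18a had 605 and 309 units, and its excess of 0.29 log2 units did not pass (limma adjusted p = 0.162). From the same locus as miR-18a and miR-19a, miR-17a had 217 and 145 units and miR-20a 275 and 144 units, and neither was present. MiR-92a had 379 and 344 units, over the limit in 4 of 4 spots on replicate 2 and in 0 of 4 on replicate 1.

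In 3 other families, 1 member was present in each. MiR-30e, of a family needed for kidney development in Xenopus, had 4678 and 2644 units and was the only one of 6 miR-30 probes present. At the other end of that family, miR-30d was the dimmest zebrafish probe of the array, at 96.1 and 95.6 units. MiR-16c was the only one of 9 miR-15/16 probes present, at 652 and 399 units. MiR-34c, of the family that p53 induces in mammals and that supports multiciliated cells in Xenopus and mouse, had 1062 and 653 units and was the only one of 3 present. No probe of the miR-29 family (2 probes) or the miR-99/100 family (2 probes) was present, although miR-100 had 601 units and 4 of 4 spots over the limit on replicate 1, with 227 units and 0 of 4 on replicate 2. The zebrafish miR-29b probe had 336 and 228 units. The human miR-29b probe was present at 4234 and 3439 units, the only one of 4 other-species miR-29 probes that was.

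The developmental timing families gave a mixed picture. Of the 5 miR-430 probes 2 were present: miR-430j, at 2447 and 1700 units, and miR-430b, at 1563 and 909 units. Both passed the test, with an excess of 2.53 and 1.76 log2 units (limma adjusted p = 0.00996 and 0.0174). MiR-430a had 341 and 174 units, miR-430i 139 and 118, and miR-430c 138 and 97.0, all under the limit as means. The miR-430 members share a seed. By RefSeq gene names, miR-430a, miR-430b and miR-430c had 18, 19 and 18 loci and miR-430i had 3, so a probe can read several copies. No locus was found for miR-430j.

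Of the 10 let-7 probes, a family that rises as cells differentiate in many animals, 3 were present. Let-7e had 1918 units on replicate 1 and 3276 on replicate 2, one of the few present probes with a brighter mean on replicate 2. That order rests on a single dim spot. On replicate 1 its upper spots read 5926 and 5984 units and its lower kept spot 199, while no spot on replicate 2 read over 3572. Let-7b had 1964 and 1384 units. Let-7c had 438 and 397 units, and its mean on replicate 1 was under that array's limit although 50% or more of its spots were over it. Its excess of 0.24 log2 units did not pass (limma adjusted p = 0.355). Let-7a, with 137 and 238 units, was not present, and neither was let-7g, with 280 and 255 units, both means under the limit. Of the spots of let-7g, 2 of 4 were over the limit on replicate 2 and 0 of 3 on replicate 1.

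Of the 8 muscle and heart probes 1 was present, 12.5% against 14.8% of all zebrafish probes. It was miR-1, which is restricted to striated muscle, at 647 and 466 units, with an excess of 0.64 log2 units (limma adjusted p = 0.0372). MiR-133a, which is encoded beside miR-1, had 230 and 207 units, and the skeletal muscle miRNA miR-206 had 202 and 174 units with no spot over the limit. MiR-499, from a myosin gene intron, had 346 and 206 units. The muscle list had a median level of 7.65, close to the 7.63 of all zebrafish probes.

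Blood and immune miRNAs were represented by 2 of 10 probes. MiR-146b, of a family known for feedback inhibition of NF-κB signalling in human cells, had 4849 and 3856 units. Its level was 12.08 ± 0.23 (SD, n = 2), with an excess of 3.61 log2 units (limma adjusted p = 0.00809). MiR-155, which activated immune cells express in mammals, had 1073 and 685 units. MiR-146a had 289 and 287 units and was over the limit on replicate 2 only. MiR-451, which promotes red cell maturation in zebrafish, had 176 and 182 units and no spot over the limit. None of the 4 endothelial probes was present, and the vessel miRNA miR-126 was the brightest of them at 331 and 157 units.

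From the Hox clusters 1 of 8 probes was present. MiR-196b, which lies among posterior Hox genes and represses Hox messages, had 1884 and 1068 units (limma adjusted p = 0.0143 for an excess of 2.01 log2 units). MiR-196a had 407 units on replicate 1 and 119 on replicate 2. Of its spots, 2 of 4 were over the limit on replicate 1, where its mean was under it, and 0 of 4 on replicate 2. MiR-10b, which also lies among Hox genes, had 179 and 160 units, and the star arm miR-10a* had 412 and 280 units with 2 of 4 spots over the limit on replicate 2 and 1 of 4 on replicate 1.

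The endoderm list had 1 of 7 probes present, miR-192, a miRNA of gut, liver and kidney. It was the dimmest present probe, with 456 and 285 units, and its excess of 0.03 log2 units did not pass the test (limma adjusted p = 0.842). MiR-375, which is needed for pancreatic islets in zebrafish, had 449 and 222 units, both means under the limit, with 2 of 3 spots over it on replicate 1 and 0 of 4 on replicate 2. The liver miRNA miR-122 had 316 and 198 units.

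The 13 sensory organ probes and the 7 cartilage and mesenchyme probes held no present member. MiR-96, a hair cell miRNA, was the brightest sensory probe at 345 and 251 units. Its cluster neighbour miR-183 had 128 and 124 units, among the 10 dimmest zebrafish probes. MiR-200a, which is found in olfactory and other epithelia, had 268 and 207 units. In the cartilage list, miR-199* had 428 and 366 units, over the limit on replicate 2 only, and the cartilage miRNA miR-140 had 248 and 196 units.

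**Figure D4:**
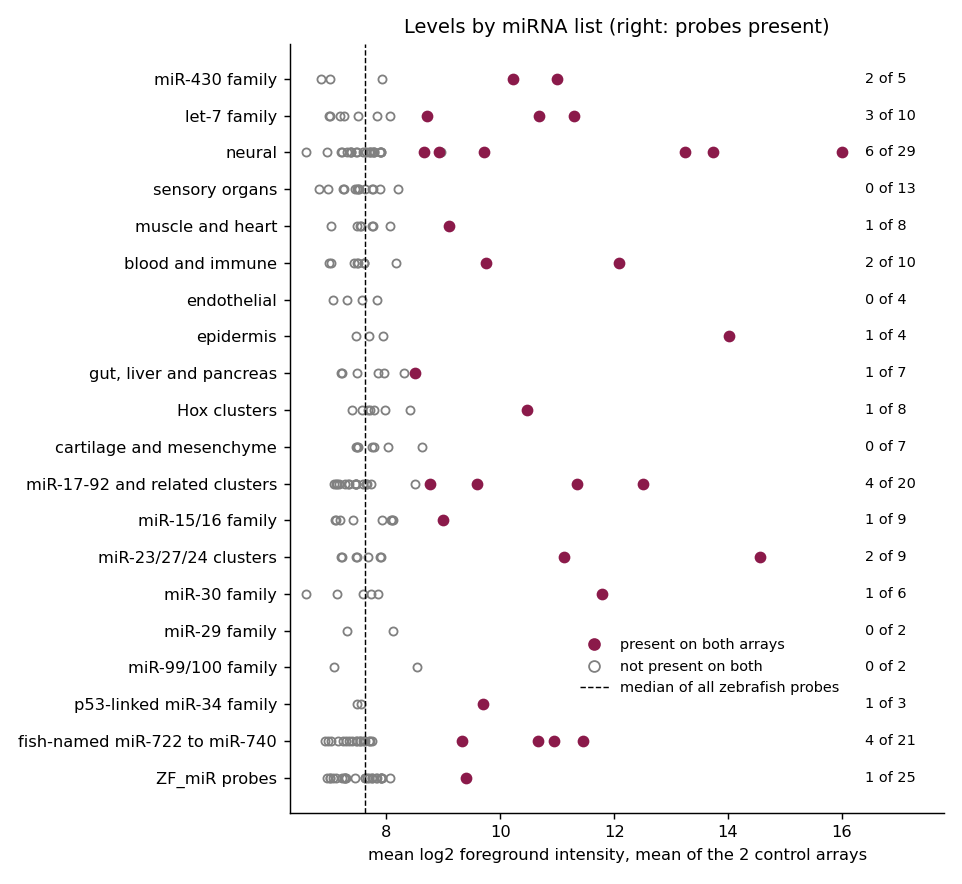
Mean log2 foreground intensity (horizontal axis) of the probes of each miRNA list (rows) in control embryos, with present probes marked and the number present of the number on the array beside each row. Most lists have 1 to 4 present probes beside a body of probes between 7 and 8.5, and the sensory, endothelial, cartilage, miR-29 and miR-99/100 lists have none present. The present miR-192 lies within that body at 8.49, and miR-153a, which was not present, lies above it at 8.96.

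These counts were described and not tested, and are to be read against the 14.8% of all zebrafish probes. Of the 41 probes in no list, 5 were present. MiR-193b had 17755 units on replicate 1 and 6823 on replicate 2, or 13.43 ± 0.98 (SD, n = 2), and was the fifth brightest zebrafish probe. It is best known for a part in brown fat differentiation in mouse. MiR-21, a miRNA of the forming heart valve in zebrafish, had 2554 and 1520 units. MiR-202, a gonad miRNA in fish and mammals, had 1569 and 810 units, miR-22a had 1343 and 441, and miR-220 had 728 and 583.

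Of the 21 probes for miR-722 to miR-740, names given to miRNAs first found in zebrafish, 4 were present. MiR-737 had 2185 and 1779 units and miR-724 had 687 and 601. MiR-726 had 8084 units on replicate 1 and 973 on replicate 2, and miR-736 had 6806 and 389. These last showed the largest differences between the arrays of any zebrafish probe, at 3.05 and 4.13 log2 units. For miR-726 the spots ranged from 7473 to 8788 units on replicate 1 and from 944 to 1023 on replicate 2, so the spots of an array were alike and the arrays were not. For miR-736 they ranged from 6215 to 7417 and from 338 to 478. The excess of miR-736 did not pass the test (limma adjusted p = 0.136). That of miR-726 did (limma adjusted p = 0.0388), although its excess of 2.99 log2 units had an SD of 1.66 over the 2 arrays.

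Of the 25 ZF_miR probes only ZF_miR_20 was present, 4% against 14.8% of all zebrafish probes. It had 1015 and 451 units, and its printed positions disagreed. On replicate 1 its upper spots read 145 to 237 units and its lower spots 5398 to 5732. On replicate 2 its upper spots read 891 to 898 and its lower kept spot 115. The high position was thus the lower one on replicate 1 and the upper one on replicate 2.

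Positions also disagreed for let-7e, miR-18b*, let-7c, miR-181a and miR-192. Let-7e on replicate 1 had 5926 and 5984 units in its upper spots and 199 in its lower kept spot, while all its spots on replicate 2 read between 2998 and 3572. MiR-18b* on replicate 1 had 1274 and 1301 units above and 255 below. In contrast, the ratio of a probe's highest to lowest spot had a median of 1.19 on replicate 1 and 1.16 on replicate 2 over the present probes, against 1.70 and 1.37 over the others. Only 4 present probes had a ratio over 2 on either array.

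The levels on either side of the limit were close. The 5 present probes nearest to it were let-7c, miR-192, miR-18a, miR-181a and miR-128, whose excess on their lower array lay between −0.04 and 0.44 log2 units. The 5 nearest below it were miR-199*, miR-10a*, miR-153a, miR-22b and miR-92a, between −0.07 and −0.25. Among all probes that were not present, 4 had a mean level above that of the dimmest present probe.

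At the dim end, the 10 lowest probes had mean log2 levels between 6.58 and 6.98, near the empty-spot medians of 127 and 101 intensity units. They were miR-30d, the shared probe for miR-181b and miR-181c, miR-141, miR-430c, miR-730, ZF_miR_17, miR-212, miR-202*, miR-728 and miR-183. Of these miR-212 is encoded beside miR-132, and miR-202* is the opposite arm of miR-202, so some dim probes had a bright neighbour from the same precursor or locus. The shared miR-181 probe and miR-430c also had a present neighbour, miR-181a and miR-430b. No neighbour within 10000 bases was present for miR-30d, miR-141, miR-183 or miR-728. No upper limit on the amount of RNA can be drawn from a dim probe, as brightness also depends on probe sequence and label uptake.

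A hairpin gives 2 arms, and the one marked with a star is the one named as less abundant. Of 26 pairs with both arms on the array, none had both arms present, 18 had neither, 6 had only the unstarred arm and 2 had only the star arm. These counts were not tested, and with few arms present, few pairs with both present would arise in any case. Present or not, the star arm was brighter in the mean in 9 pairs. It was brighter on both arrays in 6 pairs, and the other arm was in 12. In the 2 pairs with a present star, miR-27c* had a mean level of 11.11 against 7.88 for miR-27c, and miR-18b* had 9.58 against 7.17 for miR-18b. MiR-18b* had a kept spot of 255 units on replicate 1, under the limit. The 6 unstarred arms were miR-9, miR-132, miR-19a, miR-30e, miR-202 and miR-181a, whose stars lay between 6.96 and 7.89. Of all star probes 2 of 26 were present (7.69%), against 34 of 217 others (15.7%).

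**Figure D5:**
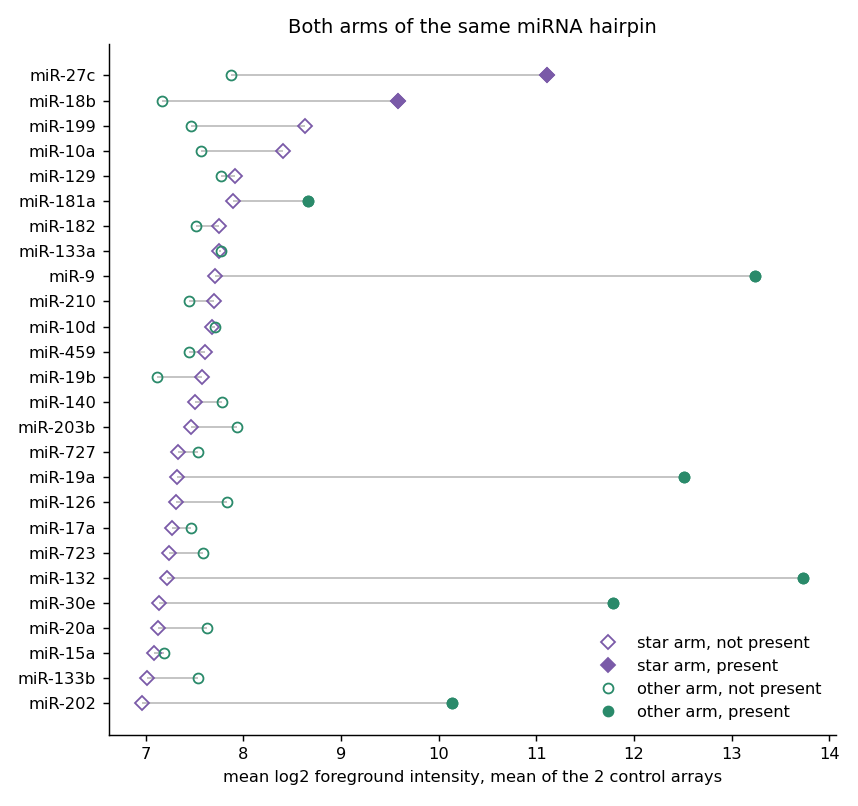
Mean log2 foreground intensity over the 2 control arrays (horizontal axis) of the star arm (diamonds) and the other arm (circles) of 26 hairpins, filled where the arm was present. MiR-27c* and miR-18b* are the only filled diamonds, at 11.11 and 9.58, and no hairpin has both marks filled.

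Neighbouring miRNA genes often share a transcript, so presence was also read by locus, using RefSeq gene names of assembly GRCz12tu to find which genes neighbour each other. A locus was found for 214 of 243 probes, and for 33 of the 36 present ones. Loci within 10000 bases of the next formed 52 groups with at least 2 probes. In 29 groups no probe was present, in 23 some were, and in 0 were all present. These counts were not tested and are to be read against the 14.8% of all zebrafish probes that were present. At that share, groups with all probes present would be few in any case. The groups are not independent, as a probe with several loci, such as miR-181a, counts in several groups. Star arms count as members too. In the miR-17-92 group 2 of 10 probes were present, miR-18a and miR-19a. MiR-132 was present without miR-212, miR-1 without miR-133a, miR-192 without miR-194a, miR-34c without miR-34b, and let-7b and let-7e without let-7a. Many miRNAs have several loci that 1 probe cannot separate.

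Probes of the same family from other species were compared with the zebrafish ones. In 75 families both kinds were on the array. The other-species probes are here those without a zebrafish name, with worm and insect probes included. However, 61 zebrafish probes also carry a human, mouse or rat name. Among them are the miR-9, miR-129 and miR-363 probes below, so for these the comparison is between probes and not between species. Of the 24 families with a present zebrafish probe, 6 also had a present probe of another species, and of the 51 without, 16 had one. MiR-218a was saturated while the human miR-218 probe had a mean log2 level of 7.06. MiR-9 had 13.24 and the mouse miR-9 probe 7.59, and miR-21 had 10.94 and the human miR-21 probe 7.64. In the other direction, zebrafish miR-129 had 7.77 and the human miR-129 probe 14.38, miR-363 had 7.08 and the rat miR-363-3p probe 13.75, and miR-26b had 7.86 and the human miR-26b probe 12.94. Zebrafish miR-192 had 8.49 and the human miR-192 probe 12.83. Each other-species probe named here was the brightest such probe of its family. Of these probes 1 of 3 was present for miR-363, 1 of 2 for miR-26 and 1 of 2 for miR-192. The dimmest had 7.31, 7.66 and 7.42. Probe sequences were not analysed here, so how far these probes differ in sequence is not stated.

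Probes for other animals also supplied some of the brightest signals. The worm probe cel-miR-251 had 15979 and 13499 units, a mean log2 level of 13.84, which 3 zebrafish probes exceeded: miR-218a, miR-23a and miR-203a. The mouse probe mmu-miR-682 read 65294 and 65291 units, at the scanner ceiling as miR-218a was, so these probes cannot be ranked against each other. In all, 6 probes for other species lay above miR-23a. With worm and insect probes counted in, other-species probes of families with a zebrafish probe were present in 23 of 150 cases (15.3%). Those of other families were present in 107 of 685 (15.6%). Their part in the brightness of the zebrafish probes was not tested.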

How the data were processed

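Per the file headers, the deposited scanner files give each spot a raw foreground intensity, a local background intensity that was not subtracted, and an ignore mark from the quantification software. Labelling and hybridisation are described in the labels' protocols. The authors' deposited table holds log2 values. All those for the control arrays were rebuilt, within 0.001, as the mean log2 of a probe's kept spots of at least 100 units minus the mean log2 of the Ncode control spots. It served as an alternative.

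Spots marked as ignored, 11.7% on replicate 1 and 4.64% on replicate 2, were left out, which left 847 and 924 zebrafish spots with a median of 226 and 166 units. Kept spots listed at 0 (0 and 3 zebrafish spots) had no log2 value and counted as not over the limit. The intensity of the kept spots was otherwise used as deposited, without normalisation between arrays. Empty and blank spots numbered 335 and 375. All empty spots lay in print row 8 of each of the 24 blocks. The number of arrays limits the precision, and the median standard error in limma was 0.161 log2 units (prior degrees of freedom 1.85).

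R 4.3.3 with limma 3.58.1, Python 3.11.15, pandas 2.3.3, numpy 2.4.6 and matplotlib 3.10.9 were used, with an adjusted p threshold of 0.05. The limma step was tested on simulated data in which no probe was set below the limit and probes varied independently. These data differ in having many probes below it. The simulation therefore does not bear on how those probes affect the adjusted p-values. The 20 lists and the members were chosen with earlier results of these data known. The miRNAs named by rule were the 24 brightest present and the 10 dimmest probes, the 5 on each side of the limit, the 6 with the largest difference between arrays, saturated probes, every present list member, the brightest other member of each list, and present star arms with their partners. Further members are named as well known markers or neighbours, chosen after their values were seen. The alternatives were other limits, other shares of spots, background corrections, all spots, the deposited table and 1 array at a time. The 4 ethanol arrays were not used.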

Additional observations from a re-analysis of the deposited data

How the results depend on the processing

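The present count of 36 depended most on the limit. It was 16 with the 95th percentile of worm and insect probe spots and 57 with that of the blank spots alone. It was 30 when every kept spot had to pass, when ignored spots were included, or when both print positions had to pass, the last chosen after seeing the data. In that last setting a position with no kept spot was passed over, so miR-203a, miR-30e, miR-92b, miR-737 and miR-16c were judged on replicate 1 by the upper position alone. With 1 array left out it ranged from 42 to 49. Of the 36 probes, 15 were present under the main rule and all 14 alternatives: miR-218a, miR-23a, miR-203a, miR-132, miR-193b, miR-9, miR-19a, miR-146b, miR-30e, miR-92b, miR-27c*, miR-430j, miR-737, miR-21 and let-7b. Some alternatives could not remove a present probe, as a 90th percentile limit is looser and 1 array alone asks for less. The worm and insect limit, which kept 16, removed the most. The median level of the present probes, 10.57, was 3.73 above the empty-spot median, 2.93 in the authors' log2 table, and 9.88 to 10.89 with 1 array left out. Pearson's r between the arrays was 0.611 over the probes not present, and Spearman's rho over all probes was 0.755. The limma count of 30 was 179 against the median of the empty spots, 16 against the worm and insect limit, and 21 with ignored spots included. No paired analysis was possible because only 1 group was described.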
